A study of Mus musculus with 12 samples.

Results

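Trbv29, listed as V29 in the deposited clonotype tables and known as Vβ7 in the older nomenclature, is one of the variable genes of the mouse T cell receptor (TCR) β chain. The gene was chosen by a measured value, namely that it held the largest share of β chain molecules among V genes in the control IgG spleen library, so its shares are given here as a description and without a test. Its members were all clonotypes with the β constant region (TRBC) and V29 as the only V region named: 102029 of the 968766 TRBC clonotypes and 183952 of the 1791590 TRBC unique molecular indices (UMIs) over 12 libraries, 1 of 28 V regions that were named alone. A clonotype is a distinct CDR3 nucleotide sequence with its V and J region, and a UMI marks 1 original cDNA molecule. In total, 44 of the Trbv29 clonotypes had an undetermined base, 0 had a stop codon and 0 were out of frame. A further 41 clonotypes, with 44 UMIs, named V29 together with other V regions and were left out.

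The study asked how the TCR repertoire of CD8+ T cells changed when mice bearing HNSCC/Q1-2 tumors, formed by a mouse oral cancer cell line, received a CSF-1R-blocking antibody fused to IL-10. CD8+ T cells were isolated with magnetic beads from tumors, spleens and tumor-draining lymph nodes (tdLNs) of wild-type mice given control IgG, the αCSF1R antibody alone, the IL-10-Fc protein alone or BF10, a fusion of human IL-10 to the CSF-1R antibody. All received an equivalent dose of 30 mg/kg according to the labels, in 3 doses at an interval of 3 days, and the study's methods for tumor growth experiments give a different mass per body weight for some agents, adjusted for molecular weight, so 30 mg/kg may not be the mass of each agent. Each of the 12 combinations of tissue and treatment is 1 library made from the pooled cells of 3 mice, so no difference between treatments could be tested and treatment cannot be told apart from the mouse pool. The labels give neither strain nor age, and call the tdLN cells CD8+ in their characteristics but not in their titles. The study names a C57BL strain for its HNSCC model. Marker genes of CD8+ cells are not part of a receptor library, so the cell type was not checked here. Each tissue was deposited as a table of its own, so tissue cannot be told apart from a sequencing or processing batch.

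A β chain is assembled in the thymus when 1 V, 1 D and 1 J segment are cut and joined, with bases trimmed from the ends and others added at random. The join encodes CDR3, the loop that touches the presented peptide most directly, whereas the V segment alone encodes the loops that touch mainly the MHC molecule. Vβ7 is among the β chains used by invariant NKT cells, together with Vβ8 and Vβ2, and it is among those bound by the superantigen of the mouse mammary tumor provirus Mtv-7, together with Vβ6, Vβ8.1 and Vβ9. Neither NKT cells nor superantigens were measured here. Whether mice of the C57BL strain named by the study carry Mtv-7 was not tested, so nothing about Mtv-7 is read from the shares below.

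In GRCm38, Trbv29 (ENSMUSG00000076480.2) lies on the plus strand of chromosome 6 from 41271394 to 41271881, with exon 1 at 41271394 to 41271451 and exon 2 at 41271587 to 41271881. GENCODE vM21 annotates it as a TR_V_gene, whereas RefSeq, from 41271403 to 41271881, calls it a V segment pseudogene. All of its listed clonotypes were in frame. Whether joins out of frame were listed for any V gene was not checked, so nothing about the annotation is read from this. The last 17 bases of exon 2, from 41271865 to 41271881, are the part that V29 can contribute to CDR3, and they are shown with both D segments and the CDR3 parts of the J segments most needed to read the clonotypes below. All were read 5′ to 3′ from GRCm38.
Trbv29 CDR3 end: tgtgctagcagtttatc
Trbd1: gggacagggggc
Trbd2: gggactgggggggc
Trbj1-1 CDR3 part: caaacacagaagtcttcttt
Trbj1-2 CDR3 part: caaactccgactacaccttc
Trbj1-4 CDR3 part: tttccaacgaaagattatttttc
Trbj2-2 CDR3 part: caaacaccgggcagctctacttt
Trbj2-4 CDR3 part: agtcaaaacaccttgtacttt
Trbj2-5 CDR3 part: aaccaagacacccagtacttt
Trbj2-7 CDR3 part: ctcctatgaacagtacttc

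The largest Trbv29 clonotype of each library is shown next, whether or not it is among the large clonotypes described below. Bases in lower case match the germline Trbv29 end from the 5′ side or the J segment from the 3′ side, and capitals mark the bases between them, which come from a D segment or were added at the joins.
Tumor control IgG, Trbj2-5: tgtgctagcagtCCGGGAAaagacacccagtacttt
Tumor IL-10-Fc, Trbj2-5: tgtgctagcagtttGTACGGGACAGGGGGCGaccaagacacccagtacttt
Tumor αCSF1R, Trbj2-4: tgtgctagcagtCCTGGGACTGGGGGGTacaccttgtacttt
Tumor BF10, Trbj1-4: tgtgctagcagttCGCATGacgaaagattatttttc
Spleen control IgG, Trbj1-1: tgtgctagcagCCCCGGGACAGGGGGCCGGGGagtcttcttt
Spleen IL-10-Fc, Trbj2-1: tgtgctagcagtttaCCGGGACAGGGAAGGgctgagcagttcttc
Spleen αCSF1R, Trbj2-7: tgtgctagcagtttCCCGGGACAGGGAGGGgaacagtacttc
Spleen BF10, Trbj2-4: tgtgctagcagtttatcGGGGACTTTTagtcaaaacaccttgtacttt
tdLN control IgG, Trbj2-7: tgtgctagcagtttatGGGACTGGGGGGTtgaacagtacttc
tdLN IL-10-Fc, Trbj2-4: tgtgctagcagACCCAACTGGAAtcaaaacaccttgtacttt
tdLN αCSF1R, Trbj1-6: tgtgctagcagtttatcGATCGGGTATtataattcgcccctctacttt
tdLN BF10, Trbj1-4: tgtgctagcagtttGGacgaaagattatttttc

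Depth differed between the libraries. They held 32784 to 210616 TRBC UMIs and 2493 to 151480 TRBC clonotypes, and the αCSF1R tumor library was the smallest in both. The tumor libraries of control IgG and αCSF1R stood apart from all others, in that 76 clonotypes in each reached 0.1% of TRBC UMIs, against at most 23 in any other library. The γ and δ chains took 0.677% to 2.30% of all UMIs in spleens, 4.96% to 6.34% in tdLNs and 0.873% to 8.93% in tumors, and their part in the results was not tested. A floor of 3 UMIs, set here although clonotypes with 1 UMI are listed, was 0.00142% to 0.00915% of TRBC UMIs. Intervals given below cover counting error only.

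The share of Trbv29 among TRBC UMIs was high in spleens, low in tdLNs and divided in tumors. In spleens it was 14.2% under IL-10-Fc (95% Wilson interval 14.0% to 14.4%), 13.3% under αCSF1R (13.1% to 13.4%), 13.2% under control IgG (13.0% to 13.3%) and 9.39% under BF10 (9.24% to 9.54%). In tdLNs it was 8.02% under BF10 (7.91% to 8.14%), 7.84% under αCSF1R (7.73% to 7.96%), 7.48% under IL-10-Fc (7.36% to 7.60%) and 6.76% under control IgG (6.62% to 6.90%). In tumors it was 14.5% under BF10 (14.3% to 14.6%), 13.2% under IL-10-Fc (13.0% to 13.4%), 5.91% under control IgG (5.77% to 6.05%) and 5.01% under αCSF1R (4.78% to 5.26%). The 4 spleen libraries all lay above the 4 tdLN libraries, whereas the tumor libraries lay on either side of both. Ordered from the top, the intervals of the BF10 tumor and the IL-10-Fc spleen overlapped, as did those of the αCSF1R spleen, the IL-10-Fc tumor and the control IgG spleen, and those of the BF10 and αCSF1R tdLNs. The BF10 spleen, the IL-10-Fc tdLN, the control IgG tdLN, the control IgG tumor and the αCSF1R tumor each stood clear of their neighbours by their counting intervals.

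Among TRBC clonotypes, where each counts once whatever its size, the pattern in tumors was narrower. Trbv29 made up 14.0% of tumor clonotypes under IL-10-Fc (13.7% to 14.3%), 14.0% under BF10 (13.8% to 14.3%), 9.43% under αCSF1R (8.34% to 10.6%) and 8.46% under control IgG (7.92% to 9.04%). The intervals of control IgG and αCSF1R overlapped, and those of IL-10-Fc and BF10 overlapped. In spleens the shares were 14.2% under IL-10-Fc, 13.4% under αCSF1R, 12.4% under control IgG and 9.82% under BF10. In tdLNs they were 8.38% under IL-10-Fc, 8.24% under αCSF1R, 8.14% under BF10 and 7.82% under control IgG. By clonotypes, all 4 tumor values lay above all 4 tdLN values, which was not so by UMIs, although the intervals of the control IgG and αCSF1R tumors overlapped those of tdLNs. Trbv29 ranked first among V genes by clonotypes in 5 libraries, namely the control IgG, IL-10-Fc and αCSF1R spleens and the IL-10-Fc and BF10 tumors, and between the 2nd and 4th place in the others.

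**Figure D1:**
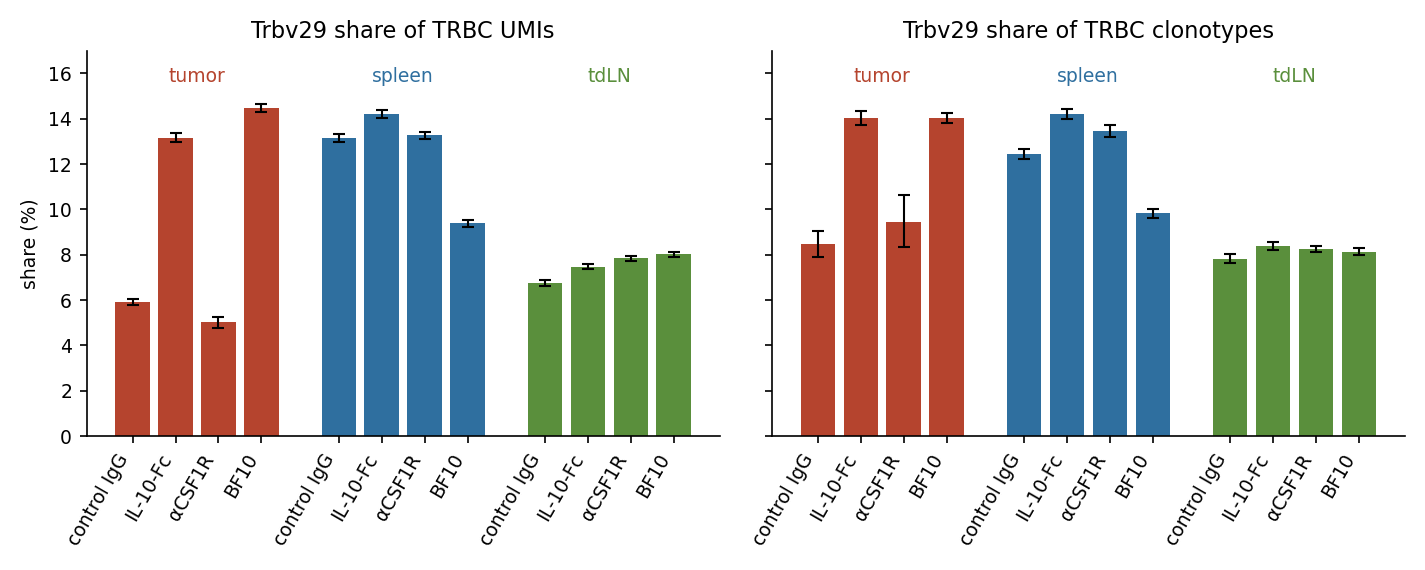
Share of Trbv29 among TRBC UMIs (left) and among TRBC clonotypes (right) in percent for the 12 libraries, with 1 library per bar and 95% Wilson intervals as error bars. The spleen bars stand at 9.39% to 14.2% of UMIs above the tdLN bars at 6.76% to 8.02%, and the tumor bars fall into a low pair and a high pair.

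Between tissues, the mean Trbv29 share of UMIs was 12.5% ± 2.13 (SD, n = 4 libraries) in spleens, 7.52% ± 0.561 in tdLNs and 9.64% ± 4.87 in tumors. The spleen to tdLN ratio was lowest under BF10 at 1.17, and was 1.69 under αCSF1R, 1.90 under IL-10-Fc and 1.95 under control IgG. The tumor to tdLN ratio was below 1 under αCSF1R at 0.639 and under control IgG at 0.875, and above 1 under IL-10-Fc at 1.76 and under BF10, the highest of the 4, so that its direction was not the same in all mouse pools. Without the TRBC clonotypes that held at least 0.1% of the UMIs of their library, it was above 1 in all 4, at 1.27 under αCSF1R, 1.49 under control IgG, 1.83 under BF10 and 1.86 under IL-10-Fc. Those large clonotypes took 15.3% of the Trbv29 UMIs and 52.3% of the other TRBC UMIs of the control IgG tumor, and 23.4% and 63.5% in the αCSF1R tumor. With them left out, the lowest tumor share was 9.97%, in the αCSF1R tumor, and the highest 14.5%, in the BF10 tumor. In the αCSF1R and control IgG pools, the direction between tumor and tdLN turned when those clonotypes were left out.

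The deposited tables also give the UMIs with at least 7 reads, and the share of Trbv29 UMIs that reached this minimum was set beside that of the other TRBC UMIs. In spleens, 48.2% to 65.6% of Trbv29 UMIs did so in each library, more than among the other TRBC UMIs of the same library in 4 of 4 libraries, for example 49.9% against 41.5% for control IgG. In tumors it was 50.2% to 73.1%, also more than among the others in 4 of 4 libraries, for example 60.4% against 49.4% for IL-10-Fc. The tdLNs were divided. In the control IgG and IL-10-Fc tdLNs, 41.5% and 36.1% of Trbv29 UMIs reached 7 reads, against 40.8% and 35.2% of the others, and in the αCSF1R and BF10 tdLNs 9.52% and 7.83%, against 10.4% and 8.30%. Counted on these UMIs, the ratio of the mean share between spleens and tdLNs was 2.02 instead of 1.66.

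Treatments were set against control IgG within each tissue, as the ratio of 2 libraries with its 95% counting interval. A ratio that is over 25% above or over 20% below 1 is called a shift here, and the share of the 19 V genes with at least 1% of TRBC clonotypes on average that shifted is given as the background. In tumors, the ratio for Trbv29 was 2.23 for IL-10-Fc (2.17 to 2.29), where 78.9% of the 19 V genes shifted, 2.45 for BF10 (2.38 to 2.52), where 78.9% shifted, and 0.849 for αCSF1R (0.805 to 0.895), which is no shift, where 84.2% of V genes shifted. Most V genes shifted between tumor libraries, and Trbv29 was among them for IL-10-Fc and BF10. By clonotypes, the tumor ratios were 1.66 for IL-10-Fc, 1.66 for BF10 and 1.11 for αCSF1R, whose interval of 0.970 to 1.28 includes 1. Without the large clonotypes, the UMI ratios were 1.38 for IL-10-Fc and 1.45 for BF10. In spleens, the ratio was 1.08 for IL-10-Fc (1.06 to 1.10) and 1.01 for αCSF1R (0.989 to 1.03), with a background of 0% and 0%. For BF10 it was 0.713 (0.699 to 0.728), and Trbv29 was the only one of the 19 V genes that shifted, which is a background of 5.26%. The gene was chosen for its share in the control IgG spleen, the denominator of these spleen ratios, so nothing is read from this. The BF10 spleen ratio was 0.789 by clonotypes (0.768 to 0.811). In tdLNs, the ratios were 1.19 for BF10 (1.16 to 1.22), 1.16 for αCSF1R (1.13 to 1.19) and 1.11 for IL-10-Fc (1.08 to 1.14), none a shift, and the background was 0% under each treatment. Counted on clonotypes with at least 2 UMIs, the tdLN ratios of BF10 and αCSF1R were 1.40 and 1.28, past the limits for a shift. The background was not counted under this setting. Clonotypes with 1 UMI, which it leaves out, were 68.8% of Trbv29 clonotypes in the control IgG tdLN, 81.7% under αCSF1R and 82.5% under BF10. Among the other TRBC clonotypes they were 55.1%, 78.3% and 80.4%. These 9 ratios share 3 control libraries, and no library was repeated.

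The other V genes place these values. By UMIs, 26.3% of the 19 V genes had all 4 spleen values above all 4 tdLN values. By clonotypes, 26.3% were higher in spleens than in tdLNs without overlap and 36.8% were lower, while 26.3% were higher in tumors than in tdLNs and 36.8% were lower. Trbv29 was in each of the higher sets. The gene was chosen for its spleen share, so nothing is read from this. Its ratios of 1.53 (spleen to tdLN) and 1.41 (tumor to tdLN) by clonotypes were the largest of the 19. The next largest in both were those of Trbv12-1, at 1.34 and 1.37. The lowest spleen to tdLN ratio, 0.579, was that of Trbv31, the V gene that lies inverted behind the constant regions. Trbv12-1 and Trbv31 were picked after their values were seen.

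**Figure D2:**
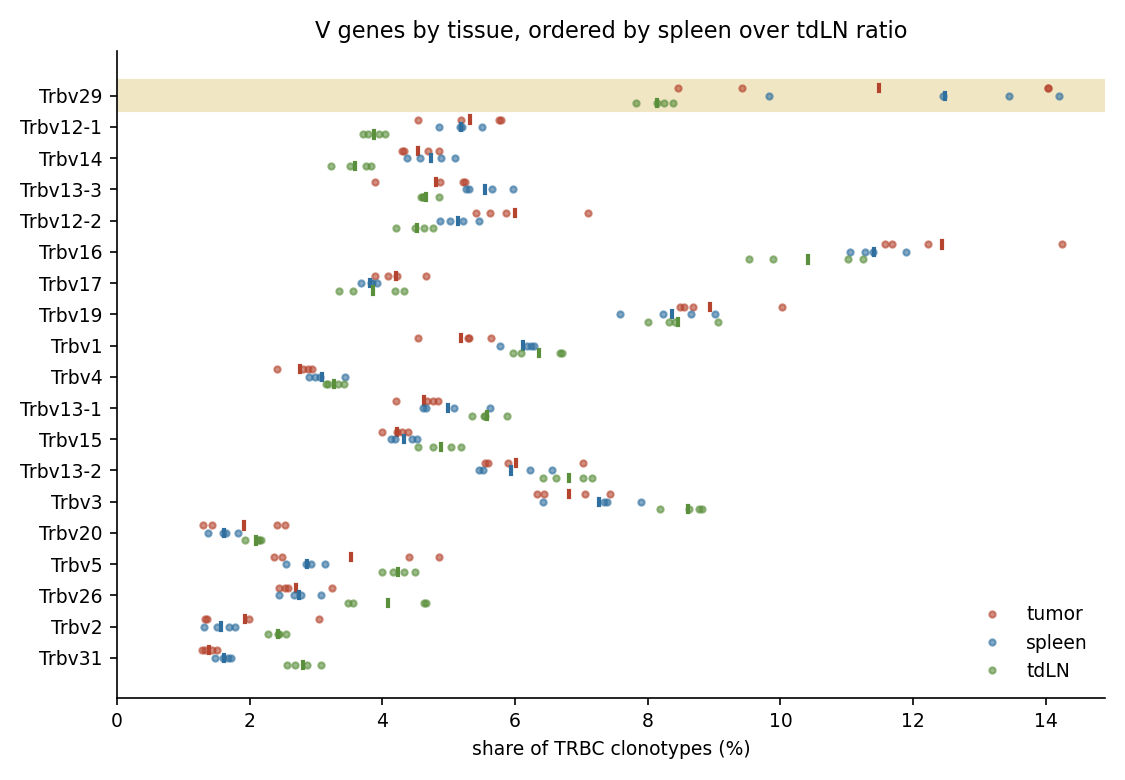
Share of TRBC clonotypes (percent) of the 19 V genes with at least 1% on average, with 1 point per library (4 per tissue) and a bar at each tissue mean, ordered by the ratio of the spleen mean to the tdLN mean. Trbv29, at the top, has its spleen points at 9.82% to 14.2% and its tdLN points at 7.82% to 8.38%.

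The V genes whose clonotype share ran most like that of Trbv29 over the 12 libraries were Trbv14 (Spearman rho 0.85), Trbv16 (0.67) and Trbv13-3 (0.63), the latter encoding Vβ8.1. These are descriptions over 12 libraries that share tissues, pools and depth, and shares within a library are bound to sum to a whole. Trbv14 took 4.73% ± 0.321 of clonotypes in spleens, 3.58% ± 0.272 in tdLNs and 4.54% ± 0.269 in tumors (SD, n = 4 libraries each), the same order of means as Trbv29 at a lower level. Trbv16 had its highest mean in tumors at 12.4% ± 1.24 against 11.4% ± 0.353 in spleens.

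The other β chains known from invariant NKT cells were set beside Trbv29. Of the 4 genes (Trbv1, Trbv13-1, Trbv13-2 and Trbv13-3), Trbv13-3 was higher in spleens than in tdLNs without overlap and 0 were lower, and the median spleen to tdLN ratio was 0.929, beside 0.946 over the 19 V genes. In tumors, 0 of the 4 were higher than in tdLNs and 2 were lower, with a median ratio of 0.856 beside 0.883 over all. Over the 19 V genes, 26.3% were higher and 36.8% lower than in tdLNs, in spleens and in tumors alike. Trbv13-2, which encodes Vβ8.2, had a clonotype share that ran against that of Trbv29 (rho -0.87), from 6.81% ± 0.348 in tdLNs to 5.94% ± 0.538 in spleens. Of the 3 other genes known to bind the Mtv-7 superantigen, Trbv13-3 was higher in spleens than in tdLNs, and Trbv17 (Vβ9) and Trbv19 (Vβ6) had ratios of 0.990 and 0.990. All 3 were measured in every library, at 3.35% or more of clonotypes.

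In tumors with large clones, Trbv29 clonotypes held fewer UMIs each than other clonotypes, and elsewhere the 2 were closer. There were 7.68 UMIs per Trbv29 clonotype and 11.3 per other TRBC clonotype in the control IgG tumor, and 2.23 and 2.40 in the IL-10-Fc tumor. As a log2 ratio of Trbv29 to other clonotypes, the tumor values were -0.98 under αCSF1R, -0.56 under control IgG, -0.11 under IL-10-Fc and 0.05 under BF10. In spleens, there were 1.66 to 2.37 UMIs per Trbv29 clonotype and 1.66 to 2.41 per other clonotype. In tdLNs, the lowest value was 1.32 and the highest 1.55 for Trbv29, beside 1.35 to 1.76 for the others. The ratio lay below 1 in 9 of 12 libraries. Its mean on the log2 scale was -0.40 ± 0.47 in tumors, 0.00 ± 0.07 in spleens and -0.13 ± 0.09 in tdLNs (SD, n = 4 treatments). A two-sided exact permutation test over all exchanges of tissue labels within treatments gave p = 0.204 (adjusted p = 0.204 over 5 measures), so no difference between tissues was shown. Without the clonotypes of at least 0.1% of TRBC UMIs the adjusted p of this exact test was 0.0463. At equal TRBC UMI totals it was 0.157, and on UMIs with at least 7 reads 0.213. At the other end, clonotypes with 1 UMI made up 20.1% to 51.5% of Trbv29 clonotypes in tumors, 43.5% to 61.0% in spleens and 66.7% to 82.5% in tdLNs.

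Trbv29 joined to the Trbj2 cluster less often than the other V genes did, in 12 of 12 libraries. The Trbj2 cluster lies downstream of Trbd2, and Trbj1 downstream of Trbd1. The share of Trbv29 clonotypes with a Trbj2 segment was 65.6% ± 2.36 in tumors, 67.5% ± 1.51 in spleens and 63.4% ± 2.73 in tdLNs, beside 68.4%, 70.2% and 68.0% for other TRBC clonotypes. The difference was between -5.63 and -0.979 percentage points in the 12 libraries. Among the 19 V genes, Trbv29 had the 6th lowest mean Trbj2 share, at 65.5% ± 2.69 over the 12 libraries. The Trbj2 share of Trbv29 was higher in the spleen than in the tdLN in 4 of 4 treatments, by 4.11 ± 2.33 percentage points. The exact permutation test across tissues did not pass after adjustment (p = 0.0694, adjusted p = 0.104), nor did that of its difference from other V genes (p = 0.0833, adjusted p = 0.104).

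By single J segments, Trbj2-4 and Trbj2-7 were joined to Trbv29 least in proportion to their use with other V genes. Trbj2-4 was found in 8.12% ± 0.725 of Trbv29 clonotypes and 9.45% ± 0.193 of the others (SD, n = 12 libraries), and it was lower with Trbv29 in 12 of 12 libraries. Trbj2-7, the most used segment, was found in 18.8% ± 1.23 of Trbv29 clonotypes, with a mean log2 ratio to the others of -0.17, also lower in 12 of 12. Trbj1-5 and Trbj1-2 were used more with Trbv29, at 3.26% ± 0.798 against 2.64% ± 0.0838 and at 6.74% ± 0.923 against 5.79% ± 0.367, each in 11 of 12 libraries. Not all Trbj2 segments were lower, since Trbj2-2 was found in 5.61% ± 0.640 of Trbv29 clonotypes and 4.93% ± 0.581 of the others, higher in 12 of 12 libraries, and Trbj2-5 in 11.9% ± 1.12 and 10.6% ± 0.447, higher in 11 of 12. These 2 were picked after their values were seen. The highest Trbj1-5 value, 5.53%, was that of the αCSF1R tumor, which had 235 Trbv29 clonotypes in all. The mean ratios to the other V genes lay between 0.855 for Trbj2-4 and 1.21 for Trbj1-5.

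**Figure D3:**
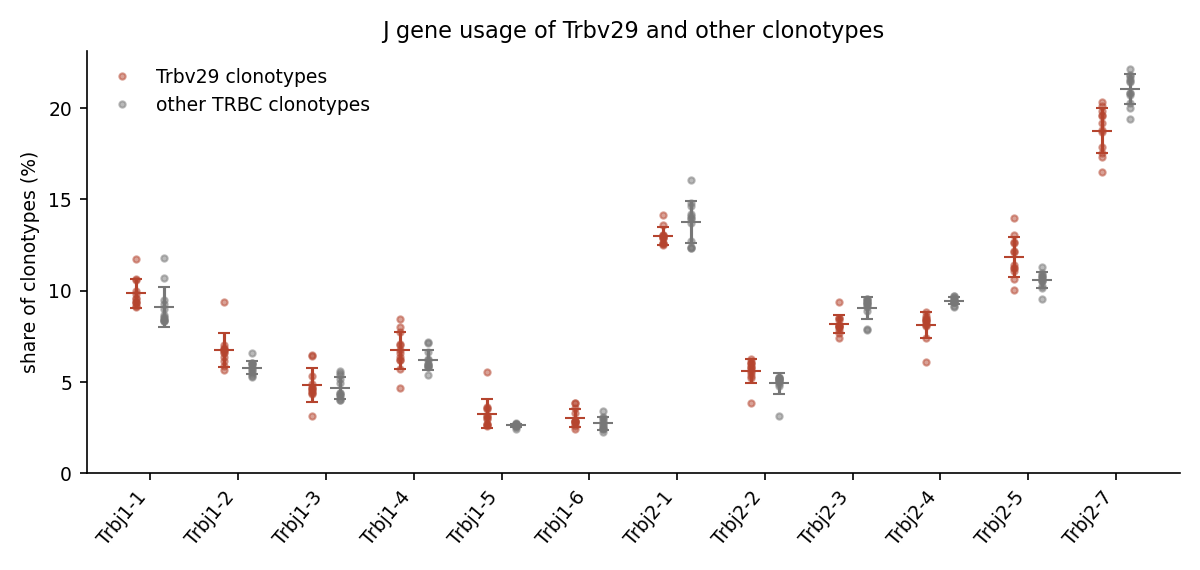
Share of clonotypes (percent) with each J segment for Trbv29 (red) and for all other TRBC clonotypes (grey), with 1 point per library (n = 12) and the mean ± SD. Trbj2-7 and Trbj2-4 lie lower for Trbv29, and Trbj2-5, Trbj1-5 and Trbj1-2 lie higher on average.

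The CDR3 of Trbv29 clonotypes was shorter than that of other TRBC clonotypes in 12 of 12 libraries. The mean was 13.5 residues in spleens, 13.5 in tumors and 13.6 in tdLNs, beside 14.0, 13.9 and 13.9 residues for the others, and the difference ran from -0.479 to -0.265 residues. Trbv29 had the second shortest mean CDR3 of the 19 V genes, at 13.5 residues. The shortest was that of Trbv20 at 13.1, whose germline end adds 14 bases to CDR3, and the longest was that of Trbv2 at 14.6, whose germline end adds 17 bases, the same number as Trbv29. CDR3s of 12 residues made up 14.8% ± 1.22 of Trbv29 clonotypes and 10.7% ± 0.344 of the others, higher in 12 of 12 libraries. Those of 16 residues made up 5.73% ± 0.591 and 9.08% ± 0.808, lower in 12 of 12. CDR3s of 14 residues were the most frequent in both, at 32.0% ± 0.661 and 31.0% ± 0.462.

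The shortening relative to other V genes was smaller in tdLNs than in spleens in 4 of 4 treatments. The difference from other clonotypes was -0.460 ± 0.0180 residues in spleens, -0.431 ± 0.0454 in tumors and -0.289 ± 0.0335 in tdLNs (SD, n = 4 treatments), and the spleen and tdLN values did not overlap. The exact permutation test across the 3 tissues gave p = 0.0139, which did not pass after adjustment over the 5 measures (adjusted p = 0.0694), and the mean length itself gave p = 0.0694 (adjusted p = 0.104). The smallest p this exact permutation design can give is 0.00463. The share of UMIs with at least 7 reads was far lower in the αCSF1R and BF10 tdLNs than elsewhere, as given above. Counted on those UMIs, the length difference from other V genes in spleens minus that in tdLNs was -0.209 residues, and the exact permutation test across the 3 tissues had an adjusted p of 0.0405. Weighted by UMIs, the adjusted p of this exact permutation test was 0.139, and with clonotypes of at least 2 UMIs it was 0.0617.

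**Figure D4:**
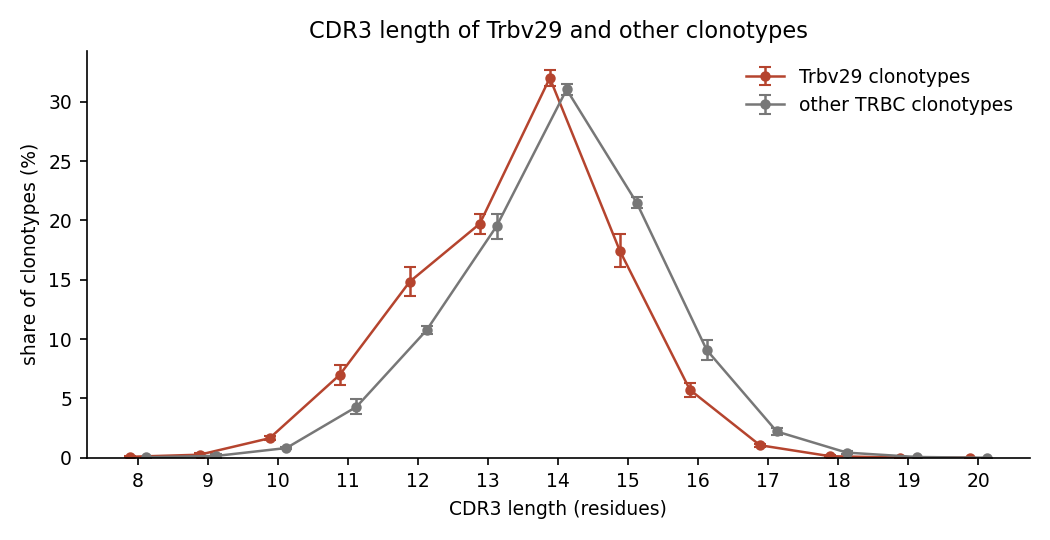
Distribution of CDR3 length in residues (x axis) as a percentage of clonotypes (y axis) for Trbv29 (red) and other TRBC clonotypes (grey), mean ± SD over 12 libraries. The Trbv29 curve lies above the other at 10 to 12 residues and below it at 15 to 18 residues.

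At the level of the join, 12.9 of the 17 germline Trbv29 bases were kept on average (range 12.8 to 13.0 over the 12 libraries), and 8.64% to 11.1% of the clonotypes of a library kept all 17. Between the V and J bases lay 9.73 to 10.3 bases on average, and in 64.7% to 73.2% of clonotypes at least 5 of them in a row matched Trbd1 or Trbd2. A match of a few bases can arise by chance, so these are counts of matching letters. The largest clonotype of the IL-10-Fc tumor, shown above, holds all 12 bases of Trbd1, and that of the αCSF1R tumor holds 12 bases of Trbd2 in a row.

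Trbv29 clonotypes of at least 0.1% of TRBC UMIs were found mainly in the control IgG and αCSF1R tumors. The same held for all TRBC clonotypes, of which 76 reached this limit in each of these tumors. The largest of all had 939 UMIs in the control IgG tumor, which is 15.3% of the Trbv29 UMIs and 0.903% of the TRBC UMIs there, and it ranked 13th among the TRBC clonotypes of that library. The same sequence was listed with 7 UMIs in the control IgG spleen and with 15 UMIs in the control IgG tdLN, and in no library of another pool. The αCSF1R tumor held 6 of the 8 Trbv29 clonotypes that reached 0.1% of TRBC UMIs in any library, with 34 to 95 UMIs each and 385 together. They were 6 of the 76 TRBC clonotypes of this size there, where Trbv29 made up 9.43% of all TRBC clonotypes. In the control IgG tumor it was 1 of 76, beside 8.46% of all TRBC clonotypes. The αCSF1R tumor was the smallest library, so the limit was passed there with the fewest UMIs. Of the 6 in the αCSF1R tumor, the largest was listed with 32 UMIs in the αCSF1R tdLN. A further 2, joined to Trbj2-3 (90 UMIs) and Trbj2-4 (80 UMIs), were listed in the spleen and the tdLN of the same pool. The other 3 were listed in the tumor library only.
αCSF1R tumor, Trbj2-3: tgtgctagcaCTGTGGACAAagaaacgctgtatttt
αCSF1R tumor, Trbj2-4: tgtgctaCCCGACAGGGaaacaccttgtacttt

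The 8th of these clonotypes came from a lymph node. It had 212 UMIs in the BF10 tdLN, or 0.104% of TRBC UMIs, and 26 UMIs in the BF10 spleen, but 0 in the BF10 tumor, where 3 UMIs are 0.00171% of TRBC UMIs. With 2 bases between its V and J parts it was also one of the simplest joins, and it was listed with 2 to 4 UMIs in 5 libraries of other pools. In the IL-10-Fc and BF10 tumors, the largest Trbv29 clonotypes held 109 and 127 UMIs, and 0 reached 0.1% of TRBC UMIs. In spleens, the largest held 22 to 118 UMIs. That of the control IgG spleen was the largest TRBC clonotype of its library and had 34 UMIs in the control IgG tumor and 0 in the tdLN. Whether a clonotype with many UMIs came from more cells or from more RNA per cell cannot be told apart in pooled RNA.

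On average, Trbv29 clonotypes were shared within a mouse pool more than between pools. As a measure, the Morisita-Horn index weighs shared clonotypes by their UMI shares, from 0 for none in common to 1 for identical repertoires. Between spleen and tdLN, the index was 0.0763 ± 0.0304 for the 4 same-pool pairs (range 0.0568 to 0.122) and 0.0314 ± 0.00733 for the 12 pairs from different pools (0.0177 to 0.0473), with no overlap. Between tumor and tdLN it was 0.0403 ± 0.0270 and 0.0152 ± 0.0159, and between tumor and spleen 0.0307 ± 0.0276 and 0.0202 ± 0.0217, and in both of these the ranges overlapped. The BF10 tumor had a higher index with the IL-10-Fc spleen (0.0605) than with the spleen of its own pool (0.0545). Its index was also higher with the αCSF1R (0.0382) and IL-10-Fc (0.0362) tdLNs than with its own tdLN (0.0348). For 3 of 4 tumors the own-pool spleen had the highest index, and for 3 of 4 the own-pool tdLN. Seen from the other tissue, the own-pool tumor had the highest index for 1 of 4 spleens and 2 of 4 tdLNs. Treatments were re-paired in all 24 ways, and the one-sided exact permutation p was 0.0417 for each of the 3 pairs of tissues (adjusted p = 0.0417), the smallest it can give. The same pattern over all V genes was known beforehand, so this is no independent support for it. When CDR3s were matched by residues instead of nucleotides, the adjusted p of the exact test was 0.0833 for each pair. Before adjustment, the p of this exact test stayed at 0.0417 for spleen and tdLN and was 0.0833 for both pairs with tumors.

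**Figure D5:**
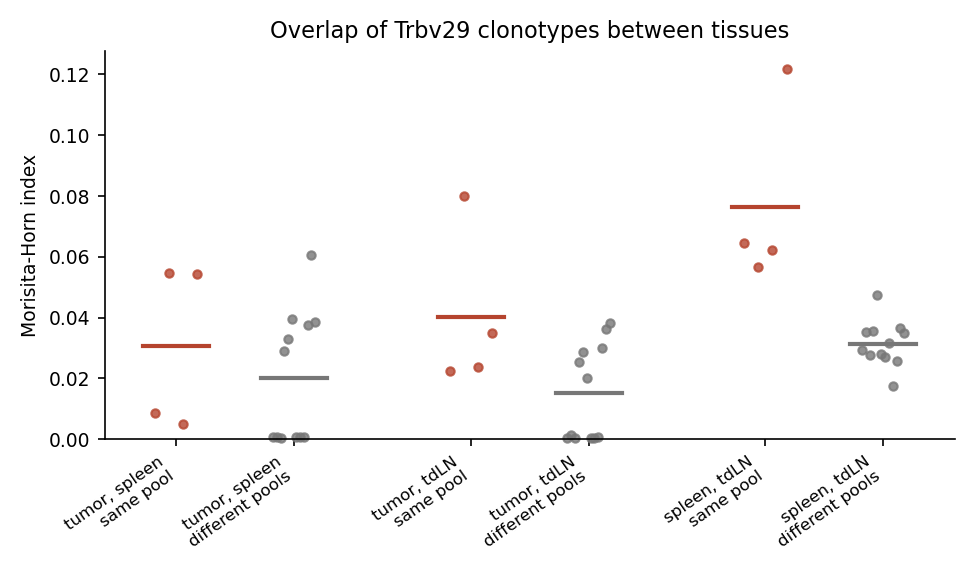
Morisita-Horn index of Trbv29 clonotypes (y axis) between libraries of 2 tissues, with 1 point per pair of libraries and a line at the mean, for pairs from the same mouse pool (red, n = 4) and from different pools (grey, n = 12). The same-pool spleen and tdLN pairs, at 0.0568 to 0.122, lie above all pairs of different pools.

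Most Trbv29 clonotypes were private to 1 library. Of 89390 distinct clonotypes, 81384 (91.0%) were listed in 1 library, 8006 in 2 or more and 0 in all 12. Of the 8006, 1585 came from 1 pool only and 6421 from 2 or more pools. The clonotypes found in many libraries had simple joins: the bases between the V and J parts were 10.5 ± 3.97 on average (SD over clonotypes) for those in 1 library, 7.96 ± 3.32 for those in 2, 6.78 ± 3.41 for those in 3 to 4, 6.11 ± 3.51 for those in 5 to 7 and 6.47 ± 3.61 for those in 8 to 11. Bases that the longest D match did not cover fell from 4.23 in 1 library to 1.15 in 5 to 7 libraries, and were 1.19 in 8 to 11 libraries. Clonotypes in 1 library had a median of 1 UMI in total and those in 8 to 11 libraries a median of 27, so the number of libraries also depends on how many molecules were sampled. The 89390 nucleotide sequences encoded 65785 distinct CDR3s, of which 11852 were encoded by 2 or more sequences and 1 by as many as 22.

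The 5 Trbv29 clonotypes listed in the most libraries, 11 of 12 each, are shown with the bases outside the V and J parts in capitals. All 5 were missing from the αCSF1R tumor, the smallest library.
Trbj1-2: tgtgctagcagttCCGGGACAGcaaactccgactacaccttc
Trbj1-1: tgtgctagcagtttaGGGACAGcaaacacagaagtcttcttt
Trbj2-7: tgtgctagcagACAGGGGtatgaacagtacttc
Trbj2-5: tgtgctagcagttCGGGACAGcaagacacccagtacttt
Trbj2-2: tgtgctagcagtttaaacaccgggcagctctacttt

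The Trbj2-2 clonotype has 0 bases between its V and J parts, and in each of the other 4 the longest stretch shared with a D segment is 7 bases. They were not large clones. Over all libraries they had 68, 63, 43, 37 and 31 UMIs in the order shown, and at most 25 in any 1 library, for the Trbj1-1 clonotype in the αCSF1R tdLN. The residues encoded by these 5 were each encoded by 8 to 12 different Trbv29 nucleotide sequences.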

How the data were processed

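RNA of CD8+ T cells was sequenced as a UMI-tagged TCR library in each of 12 samples, without replicates. The authors assigned V region, J region and CDR3 in Qiagen's analysis portal and deposited, per clonotype and library, raw UMI counts with at least 3 reads (used here) and with at least 7 reads. The labels name mm10 as the genome build, and the germline reference behind the V and J assignments is not given in the sources used here. Every clonotype was taken as listed, and columns of no sample numbered 0.

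Members, gene lists and tests were chosen with earlier results of these data known. Shares carry 95% Wilson intervals. A floor of 3 UMIs was set for shares, although clonotypes with 1 UMI are listed. Whether the portal corrected sequencing errors is not given in the sources used here, and intervals cover counting error only. Depth was 32784 to 210616 TRBC UMIs per library. Tissues were compared by an exact permutation test with treatment as block, adjusted by Benjamini-Hochberg over 5 measures, and sharing by an exact permutation of treatment pairs, adjusted over 3. The tests were checked on simulated data. Named were Trbv29, the 3 V genes of most similar clonotype share, 2 fixed V gene lists, 2 J segments at either end of the ratio to other V genes, the largest Trbv29 clonotype of each library, those of at least 0.1% of TRBC UMIs and the 5 in the most libraries. CDR3 bases were matched without mismatch to Trbv29 and J segments of GRCm38 at GENCODE vM21 positions, which 45 of 89390 distinct clonotypes did not allow. Alternatives were UMIs with at least 7 reads, clonotypes with at least 2 UMIs, clonotypes in place of UMIs, removal of clonotypes of at least 0.1%, clonotypes with several V regions counted, merging of CDR3s 1 base apart at 10-fold lower counts, equal depth of 32784 UMIs, the Jaccard index and matching by residues for sharing, and leaving out each treatment. Tests used scipy 1.17.1 and numpy 2.4.6, tables pandas 2.3.3 and figures matplotlib 3.10.9, under Python 3.11.15.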

Additional observations from a re-analysis of the deposited data

Results flagged for a closer look

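The ratio of the Trbv29 share among TRBC UMIs to control IgG lay on different sides of 1 in different tissues under the same treatment. For BF10 over control IgG, the ratio was 2.45 in tumors, 0.713 in spleens and 1.19 in tdLNs. The control IgG spleen, on which the gene was chosen, is the denominator of the spleen ratio. For αCSF1R over control IgG, it was 0.849 in tumors and 1.16 in tdLNs, neither past the limits for a shift. With 1 library per tissue and treatment, the difference between tissues was not tested. The αCSF1R tumor ratio was 0.992 without the large clonotypes and 1.11 by clonotypes, with an interval that includes 1. No group held 4 or more samples, so single outlying samples were not looked for.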

How the results depend on the processing

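Counting clonotypes that name Trbv29 with another V region moved its share in a library by at most 0.00461 percentage points. Merging near copies keeps their UMIs within the same V gene, so it could not move this share. Clonotype shares, clonotype size, J use and CDR3 length were not counted with near copies merged. With UMIs of at least 7 reads, the spleen to tdLN ratio of the mean share was 2.02, and the treatment to control ratios were 2.54 (IL-10-Fc) and 2.85 (BF10) in tumors, 1.13 (IL-10-Fc), 0.981 (αCSF1R) and 0.730 (BF10) in spleens, and 1.05 (αCSF1R) and 1.11 (BF10) in tdLNs. With clonotypes of at least 2 UMIs they were 2.14 (IL-10-Fc) in tumors, and 1.04, 0.968 and 0.661 (IL-10-Fc, αCSF1R, BF10) in spleens. In tdLNs they were then 1.18, 1.28 and 1.40, where αCSF1R and BF10 pass the limits for a shift, with no background counted. By clonotypes they were 1.66, 1.11 and 1.66 in tumors, 1.14, 1.08 and 0.789 in spleens, and 1.07, 1.05 and 1.04 in tdLNs. Without clonotypes of at least 0.1% of TRBC UMIs they were 1.38, 0.992 and 1.45 in tumors. The tumor ratios of IL-10-Fc and BF10 moved by over 1.5 times under this last setting, which removes 52.3% of the other TRBC UMIs of the control IgG tumor. No ratio past the limits for a shift changed direction.

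Of the tests across the 3 tissues, 7 passed only under an alternative, and each is given with its spleen minus tdLN difference, which was not tested by itself. The size difference was 0.13 on the log2 scale without clonotypes of at least 0.1% (adjusted p = 0.0463 by the exact permutation test). The Trbj2 share difference was 5.08 weighted by UMIs and 6.16 with at least 7 reads, and relative to other V genes 2.96 with at least 7 reads. The length difference was -0.0817 residues weighted by UMIs and -0.123 with at least 7 reads, and relative to other V genes -0.209 with at least 7 reads. The cause was not tested. No direction was reversed. Length differences without CDR3s over 22 residues, an alternative chosen after seeing the data, stayed on the same side. With CDR3s matched by residues, the sharing differences were 0.0155 (tumor and spleen), 0.0204 (tumor and tdLN) and 0.0441 (spleen and tdLN). The exact permutation p was 0.0833, 0.0833 and 0.0417 in that order, and the adjusted p was 0.0833 for each. Leaving out 1 treatment at a time, where the exact permutation test of sharing cannot go below 0.167, gave differences of 0.00925 to 0.0120, 0.0152 to 0.0326 and 0.0269 to 0.0548 in that order. The tests across tissues keep treatment as a block, and no block of replicates could be fitted with 1 library per tissue and treatment.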
